A study of Mus musculus with 3 samples.

Results

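The genes described here are 37 mouse genes of protein folding in the endoplasmic reticulum (ER) and of the disposal of misfolded ER proteins, named by symbol and found by that symbol among the 32285 genes of 3 single-cell RNA-seq libraries of pancreatic islet cells. They comprise 12 chaperones and co-chaperones, 11 isomerases and oxidoreductases, 11 genes of ER-associated degradation and 3 sensors or transcription factors of the unfolded protein response. The libraries, 1 per group, came from mice 9 months old labelled ASF-KO, SC35-KO and WT (wild type). ASF is the older name of the splicing factor SRSF1 and SC35 that of SRSF2, and the series title concerns their role in diabetes. The labels name no Cre driver, deleted exon, strain, sex or number of animals, so which islet cells carried a deletion is not known from them. Islets freed with collagenase were picked and dissociated with trypsin, and molecules were counted by unique molecular identifiers (UMIs) at the 3' ends of transcripts. With 1 library per group no difference between genotypes could be tested. Every interval below is a 95% interval that covers counting error alone, of UMIs or, for shares of cells, of the cells drawn from 1 library. Every difference is between libraries, with animal, preparation and genotype combined, which cannot be told apart.

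The ER is where secreted proteins fold, and in a pancreatic beta cell the main client is proinsulin, which needs disulfide bonds. Hspa5 (BiP) binds unfolded chains with its J-domain partners and nucleotide exchange factors, protein disulfide isomerases make and rearrange disulfide bonds, and prolyl isomerases turn peptide bonds before proline. Chains that fail to fold are trimmed by mannosidase-like proteins, handed through a membrane complex built on Sel1l and the ubiquitin ligase Syvn1, and destroyed in the cytosol. When unfolded proteins build up, the sensors Ire1 (Ern1), Atf6 and Perk (Eif2ak3) signal to the nucleus. Ire1 splices Xbp1 mRNA, and Xbp1 and the cleaved Atf6 raise the transcription of folding and degradation genes through ER stress response elements in their promoters.

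As examples of those elements, 6 promoters are printed, each from 250 bases before to 50 bases after the RefSeq start site on GRCm38.p6. They read 5′ to 3′ on the gene's strand. The examples leave out Fkbp11 and Ern1, the measured members with the highest and lowest ratios in beta-gated cells labelled ASF-KO. Capitals mark the ER stress response element (ERSE, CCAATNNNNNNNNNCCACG), found on the gene's strand in Hspa5, Pdia6 and Canx and on the opposite strand in Creld2, or the second form of the element (ERSE-II, which reads ATTGG, any 1 base, then CCACG) in Herpud1. In Sdf2l1, which holds neither, capitals mark the CCACG that both forms share, found on the opposite strand and so printed as CGTGG. Hspa5, Creld2, Pdia6 and Sdf2l1 stood well above the median gene in beta-gated cells labelled ASF-KO, while Canx and Herpud1 did not, as described with their values.
Hspa5, chr2:34771840-34772139, plus strand: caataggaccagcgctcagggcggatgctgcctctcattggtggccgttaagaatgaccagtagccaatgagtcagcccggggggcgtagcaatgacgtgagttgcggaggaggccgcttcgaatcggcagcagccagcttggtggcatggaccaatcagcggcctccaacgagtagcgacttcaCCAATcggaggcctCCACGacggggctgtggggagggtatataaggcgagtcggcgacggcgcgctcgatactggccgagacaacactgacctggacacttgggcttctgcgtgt
Creld2, chr15:88819396-88819695, plus strand: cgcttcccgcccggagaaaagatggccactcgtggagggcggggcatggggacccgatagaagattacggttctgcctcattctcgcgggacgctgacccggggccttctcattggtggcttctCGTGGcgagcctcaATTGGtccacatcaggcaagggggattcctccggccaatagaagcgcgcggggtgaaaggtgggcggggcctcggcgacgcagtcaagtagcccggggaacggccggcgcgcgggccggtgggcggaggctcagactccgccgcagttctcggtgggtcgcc
Pdia6, chr12:17266339-17266638, plus strand: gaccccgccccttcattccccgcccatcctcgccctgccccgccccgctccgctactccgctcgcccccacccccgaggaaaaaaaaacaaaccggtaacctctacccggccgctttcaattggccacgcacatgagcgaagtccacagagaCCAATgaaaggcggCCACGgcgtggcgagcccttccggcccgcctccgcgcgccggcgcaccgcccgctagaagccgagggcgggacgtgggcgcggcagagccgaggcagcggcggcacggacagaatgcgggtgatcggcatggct
Sdf2l1, chr16:17132334-17132633, minus strand: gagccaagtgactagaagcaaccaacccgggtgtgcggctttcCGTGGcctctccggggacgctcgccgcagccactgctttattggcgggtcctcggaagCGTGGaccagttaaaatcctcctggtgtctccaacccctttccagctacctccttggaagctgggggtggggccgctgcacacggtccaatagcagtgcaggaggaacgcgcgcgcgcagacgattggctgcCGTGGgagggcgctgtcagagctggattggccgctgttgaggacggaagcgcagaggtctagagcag
Canx, chr11:50325624-50325923, minus strand: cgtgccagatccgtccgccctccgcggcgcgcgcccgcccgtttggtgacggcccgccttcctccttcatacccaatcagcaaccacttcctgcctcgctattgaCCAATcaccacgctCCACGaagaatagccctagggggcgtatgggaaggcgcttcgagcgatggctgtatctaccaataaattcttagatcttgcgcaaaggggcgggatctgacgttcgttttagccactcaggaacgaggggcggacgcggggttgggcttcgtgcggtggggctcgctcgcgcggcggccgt
Herpud1, chr8:94386179-94386478, plus strand: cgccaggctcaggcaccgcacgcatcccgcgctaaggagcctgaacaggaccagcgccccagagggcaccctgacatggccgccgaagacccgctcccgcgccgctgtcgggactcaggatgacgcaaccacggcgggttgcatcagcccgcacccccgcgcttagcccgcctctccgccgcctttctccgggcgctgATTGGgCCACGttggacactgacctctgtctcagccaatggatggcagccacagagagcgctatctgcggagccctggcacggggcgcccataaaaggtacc

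Promoters were matched by symbol for 33 of the 37 members, all but Hyou1, Manf, Derl1 and Atf6, and both strands were searched. The ERSE stood in the promoters of 10 of the 33 (30.3%), namely Hspa5, Hsp90b1, Creld2, Calr, Canx, Dnajc3, Pdia6, Ero1lb, Syvn1 and Derl3. Over the 27025 genes with a promoter it stood in 37 (0.137%), these 10 included. ERSE-II stood in 2 members, Dnajb11 and Herpud1, and in 0.0444% of genes, and the core of the Xbp1 element, TGACGTGG, in Txndc5 and Txndc11 and in 0.714% of genes. CCACG alone, which every ERSE and ERSE-II match contains, was found in 30 of the 33 members (90.9%) and in 35.5% of genes. Measured members with an ERSE had a median ratio of 2.32 relative to the median gene in beta-gated cells labelled ASF-KO (9 genes), and those with a promoter entry but no ERSE 2.04 (23 genes). For the library labelled SC35-KO those medians were 1.002 and 1.21. Fkbp11 and Sdf2l1, with the highest ratios of all members, held no ERSE in these windows, and Canx, which held one, had a ratio of 1.003 under the label ASF-KO. A match in these windows is a description of the sequence and not a site shown to be used.

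Cells were sorted into classes by the share of their UMIs in hormone or marker genes, with thresholds set after the distributions were seen. Of 12496 barcodes labelled ASF-KO, 13919 labelled SC35-KO and 10266 of WT, 7401, 11685 and 9288 passed a filter of at least 1000 UMIs, at least 500 genes and at most 20% mitochondrial UMIs. The library labelled ASF-KO therefore lost 40.8% of its barcodes, that labelled SC35-KO 16.1% and WT 9.53%, and the libraries shared 32 to 45 barcodes pairwise. Beta-gated cells, with at least 30% of UMIs from Ins1 and Ins2, numbered 3999 under ASF-KO, 5272 under SC35-KO and 4867 in WT, with medians of 26832, 17399 and 22545 UMIs. The 10 beta markers were all detected in each library, but their levels did not share 1 direction. Slc2a2 stood at 148 CPM under ASF-KO (UMIs scaled to a total of 1000000 for the class), 189 under SC35-KO and 368 in WT. Nkx6-1, Ucn3, G6pc2, Slc30a8, Mafa (216.1 and 233.6 CPM) and Iapp (41887 and 45067 CPM) were also lower in plain CPM under ASF-KO than in WT. Mafa and Iapp were lower by less than the median gene was on that scale. Pdx1 (69.35 and 62.76 CPM), Ins1 and Ins2 were higher. Srsf1 stood at 37.1 CPM in beta-gated cells labelled ASF-KO and 38.5 in WT, and Srsf2 at 26.9 CPM in those labelled SC35-KO and 27.9 in WT. Srsf2 stood at 54.3 CPM under ASF-KO. Neither targeted gene was thus clearly lower in plain CPM in the library named for it. The median gene was lower on that scale, at 0.757 of WT under ASF-KO and 0.748 under SC35-KO. However, 3' UMIs from outside a deleted part would check nothing, and libraries are named by their labels throughout.

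In beta-gated cells labelled ASF-KO most of the folding genes stood higher than in WT, and 19 of the 23 chaperones and isomerases were at least 1.5 times the median gene. Degradation genes were split, with 5 of the 10 measured at least 1.5 times higher and Sel1l, Herpud1 and Derl1 below the median gene, and none of the 3 sensors or transcription factors was higher by that fold. Ratios are of CPM and divided by the ratio of the median gene, since insulin took 63.5% of the UMIs of beta-gated cells labelled ASF-KO, 63.0% of those labelled SC35-KO and 53.4% in WT, and the median of 5838 measured genes was 0.757 of its WT CPM under ASF-KO and 0.748 under SC35-KO (log2 of -0.40 and -0.42). A gene counted as measured at a mean of 10 CPM over the libraries, which every member but Derl3 reached. Of the 36 measured members 24 were higher by at least 1.5 times, 1 was lower and 11 lay between, where 8.51% of all measured genes were higher and 7.9% lower by that fold. The members were chosen with earlier results of these data known, so the distance from all genes is not independent of that choice. The members' median was 1.05 on the log2 scale, and the 90th percentile of all genes was 0.536. In plain CPM, without division by the median gene, 19 members were higher and 3 lower by 1.5 times, among 2.26% and 32.4% of all genes.

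**Figure D1:**
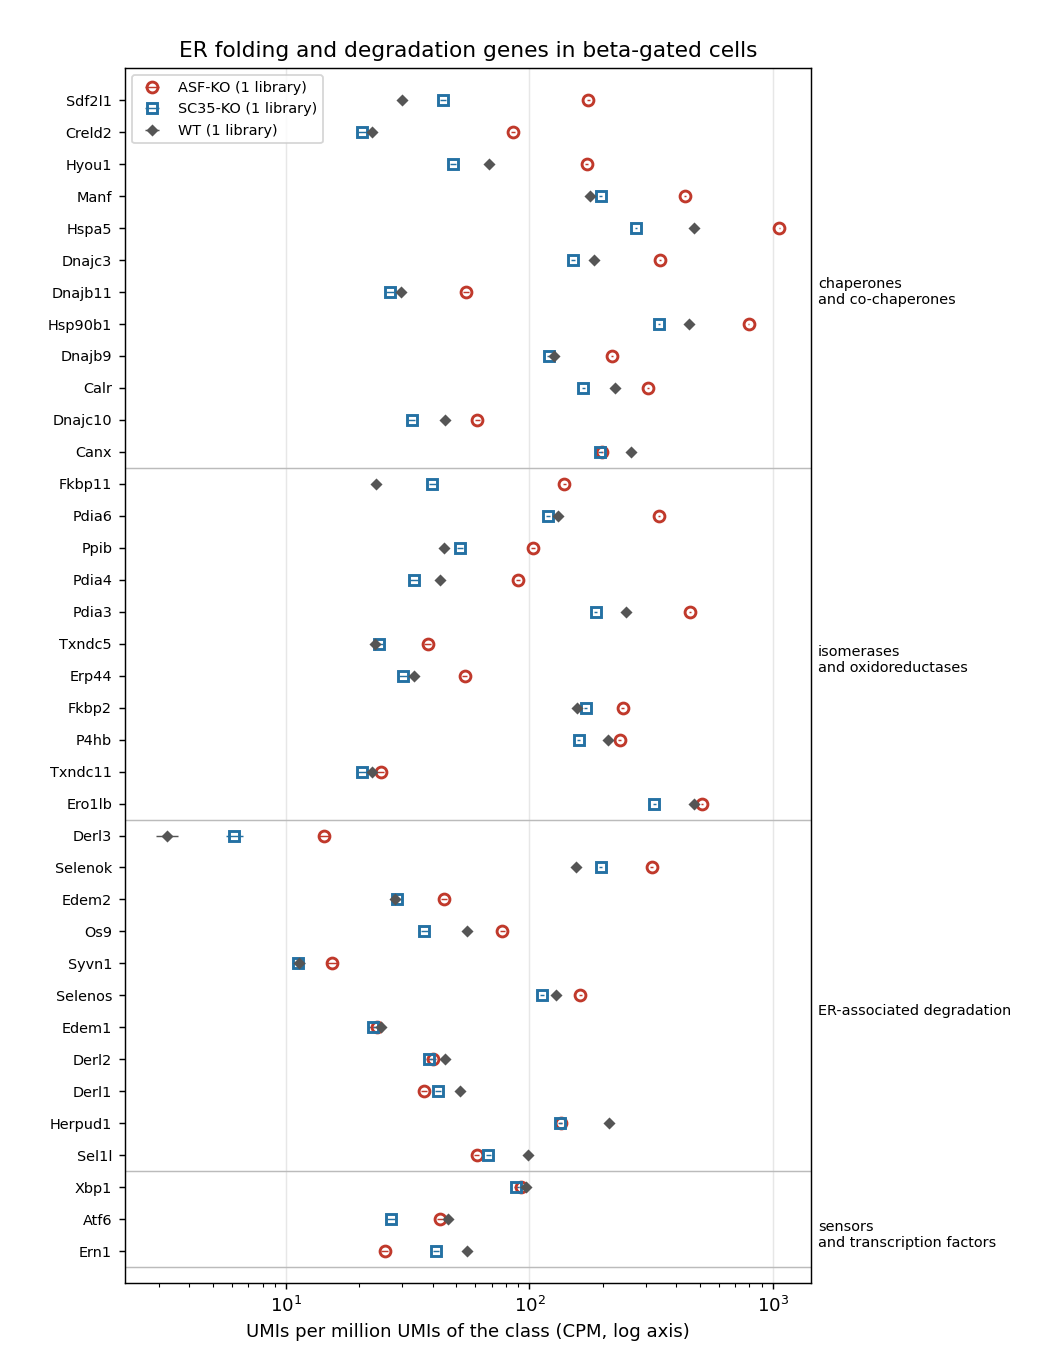
Levels of the 37 members in beta-gated cells, in CPM on a log axis, with 1 point per library and lines for the 95% counting interval, which is mostly narrower than the symbol. ASF-KO circles lie right of the WT diamonds for 11 of 12 chaperones (not Canx) and for all isomerases, up to Hspa5 at 1064 against 475 CPM, while Herpud1, Sel1l and Ern1 lie left of WT.

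Among the chaperones, the largest ratio belonged to Sdf2l1, a partner of J-domain co-chaperones of BiP. Its gene (ENSMUSG00000022769) lies on chromosome 16, bases 17130138 to 17132383 of the minus strand in mm10. It stood at 174 CPM under ASF-KO (19610 UMIs), 44.0 under SC35-KO (4223) and 29.9 in WT (3350). Its ratio to WT relative to the median gene was 7.70 (7.43 to 7.99) under ASF-KO. Both KO-labelled libraries thus held more of it than WT, by very different amounts. Creld2, a stress-induced protein with disulfide isomerase activity, came next at 85.3 CPM under ASF-KO, 20.6 under SC35-KO and 22.6 in WT, with a ratio of 4.99 (4.77 to 5.21) under ASF-KO. Hyou1, a nucleotide exchange factor of BiP, stood at 172, 48.6 and 68.1 CPM in the same libraries, with 3.34 (3.25 to 3.43) under ASF-KO. Manf, a protein of the ER that is also secreted, had 434 CPM under ASF-KO, 197 under SC35-KO and 178 in WT, with a ratio of 3.22 (3.17 to 3.28) under ASF-KO. Only for Sdf2l1 and Manf did all 3 libraries keep the order ASF-KO, SC35-KO, WT in CPM among the chaperones.

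Hspa5 itself (ENSMUSG00000026864, chromosome 2, bases 34771970 to 34777547, plus strand) had 119798 UMIs in beta-gated cells labelled ASF-KO (1064 CPM), 26317 in those labelled SC35-KO (274 CPM) and 53286 in WT (475 CPM). Relative to the median gene this was 2.96 times WT under ASF-KO (2.93 to 2.99) and 0.772 times WT under SC35-KO (0.760 to 0.783), so the libraries lay on opposite sides of WT. Its ER partner Hsp90b1 (Grp94), the ER member of the Hsp90 family, had 795 CPM under ASF-KO, 339.6 under SC35-KO and 453 in WT, a ratio of 2.32 under ASF-KO and 1.002 under SC35-KO. The J-domain co-chaperones, which stimulate the ATPase of BiP, were all higher under ASF-KO. Dnajc3 stood at 344 against 184 CPM in WT (2.46), Dnajb11 at 54.9 against 29.7 (2.44), Dnajb9 at 218 against 126 (2.29) and Dnajc10, which also reduces disulfide bonds, at 61.0 against 44.8 (1.80). The lectin chaperones, which hold glycoproteins, differed from each other. Calr had 306.5 CPM under ASF-KO and 224 in WT, with a ratio of 1.81 (1.78 to 1.84), whereas Canx had 199 under ASF-KO and 262 in WT, with 1.003 (0.985 to 1.02). Canx was the only chaperone at the level of the median gene, and in plain CPM it lay below WT, at 0.759.

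All 11 isomerases and oxidoreductases lay above the median gene under ASF-KO, 8 of them by at least 1.5 times, and all 11 were above WT in plain CPM as well. Fkbp11 (ENSMUSG00000003355, chromosome 15, bases 98724366 to 98728198, minus strand), a prolyl isomerase typical of secretory cells, had the highest ratio of any member, 7.83 (7.52 to 8.17), from 139 CPM under ASF-KO, 39.9 under SC35-KO and 23.4 in WT. Its interval overlapped that of Sdf2l1. Pdia6, a disulfide isomerase that attenuates Ire1, stood at 341.5, 119 and 131 CPM, with a ratio of 3.45 (3.39 to 3.52) under ASF-KO. Ppib (cyclophilin B), another prolyl isomerase, stood at 103, 51.9 and 44.5 CPM, with 3.06 (2.96 to 3.16) under ASF-KO. Both classes of isomerase were thus represented among the largest ratios. Other disulfide isomerases were Pdia4, at 89.9 CPM against 42.8 in WT (2.77), Pdia3, which works with the lectin chaperones, at 456 against 248 (2.43), and Txndc5, at 38.2 against 23.3 (2.16). Erp44, which retains client proteins and oxidases in the early secretory pathway, stood at 54.2 against 33.4 CPM (2.14), and the prolyl isomerase Fkbp2 at 242 against 156 (2.04). The 3 others lay just short of 1.5 times: P4hb, the classical disulfide isomerase, at 1.47, Txndc11 at 1.43 and Ero1lb, the oxidase that reoxidises disulfide isomerases in islet cells, at 1.42.

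Genes of ER-associated degradation had a median ratio of 1.46 under ASF-KO, below that of the chaperones (2.45) and of the isomerases (2.16). Selenok, a selenoprotein of the ER membrane that binds the derlins, was highest at 317 CPM under ASF-KO, 196 under SC35-KO and 155 in WT, a ratio of 2.70 (2.65 to 2.75) under ASF-KO. Edem2, a mannosidase that marks misfolded glycoproteins, stood at 44.5, 28.5 and 28.0 CPM, with 2.10 under ASF-KO. The lectin Os9, which delivers such glycoproteins to the ligase complex, stood at 77.5, 36.9 and 55.1 CPM, with 1.86. Syvn1, the ligase, was at 15.4, 11.2 and 11.3 CPM, with 1.81, and Selenos, which recruits the p97 ATPase, at 162, 113 and 128 CPM, with 1.67. Os9, Syvn1 and Selenos passed 1.5 times relative to the median gene but not in plain CPM. Edem1, a mannosidase-like protein, and the derlins Derl2 and Derl1, channel proteins of the membrane complex, lay between, at 1.28, 1.18 and 0.936. In plain CPM all 3 lay below WT, as the median gene did. Sel1l, the scaffold of the ligase complex, had 60.7 CPM under ASF-KO, 67.7 under SC35-KO and 98.2 in WT, and Herpud1, which organises that complex, 134, 134 and 212 CPM. Their ratios were 0.817 and 0.838 under ASF-KO and 0.921 and 0.843 under SC35-KO, below the 1.81 and 1.33 of Syvn1.

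Derl3, a derlin known mainly from secretory cells, fell short of the minimum of 10 CPM as a mean over the libraries and was not counted. It had 1606 UMIs in beta-gated cells labelled ASF-KO (14.3 CPM), 588 in those labelled SC35-KO (6.13 CPM) and 364 in WT (3.25 CPM). Relative to the median gene this gave 5.81 (5.18 to 6.52) under ASF-KO and 2.52 (2.21 to 2.88) under SC35-KO. In the other 4 classes compared it lay between 0.466 and 2.08 CPM, with at most 32 UMIs in any of them.

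Of the members, neither the sensors Ern1 and Atf6 nor Xbp1 was higher by 1.5 times, and Ern1 was lower under ASF-KO. The sensor Eif2ak3 is not a member. It was higher by that fold under ASF-KO and is given with the Perk arm. Ern1, which encodes Ire1, was the only member lower by that fold, at 25.4 CPM under ASF-KO, 41.4 under SC35-KO and 55.4 in WT, with 0.605 (0.579 to 0.633) under ASF-KO. Atf6 had 42.9, 27.01 and 46.1 CPM, with 1.23 under ASF-KO and 0.784 under SC35-KO. Xbp1 had 92.2, 88.4 and 96.4 CPM, with 1.26 and 1.23. In plain CPM, where the median gene itself stood below WT, all 3 lay below WT in both KO-labelled libraries. UMIs at 3' ends do not tell spliced from unspliced Xbp1 mRNA, nor active from inactive sensors.

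Under the label SC35-KO the same list stood close to WT in beta-gated cells. Of 36 measured members 4 were higher by 1.5 times and none was lower, where 3.43% of all measured genes were higher and 2.43% lower, and the members' median was 0.214 on the log2 scale with the 90th percentile of all genes at 0.395. The 4 were Fkbp11 at 2.28 (2.17 to 2.39), Sdf2l1 at 1.97 (1.88 to 2.06), Selenok at 1.69 (1.65 to 1.72) and Ppib at 1.56 (1.497 to 1.62), all of which were also higher under ASF-KO. Both comparisons use the same WT library, so a high or low WT value would move both. Manf at 1.48 and Fkbp2 at 1.46 lay just short of the fold. At the lower end stood Hspa5 at 0.772, Atf6 at 0.784 and Herpud1 at 0.843. The chaperones' median was 1.05, that of the isomerases 1.22 and that of the degradation genes 1.16. In plain CPM 1 of the 36 was higher and 3 were lower by 1.5 times, among 0.565% and 25.7% of all genes. On that scale 28 of the 36 lay below WT, but so did the median gene, at 0.748 of WT. Relative to the median gene, 25 of the 36 lay above 1.

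To ask whether a few cells or most of them carried the difference, each beta-gated cell was thinned to 2000 UMIs outside hormone and mitochondrial genes, which left out 102 shallower cells under ASF-KO, 270 under SC35-KO and 248 of WT. Chaperones and isomerases then took a median of 40 UMIs per cell under ASF-KO, 19 under SC35-KO and 18 in WT. The range from the 10th to the 90th percentile was 28 to 58 under ASF-KO, 12 to 27 under SC35-KO and 12 to 25 in WT. Nearly the whole distribution of these kept and thinned ASF-KO cells was therefore displaced. Of cells labelled ASF-KO 94.0% (93.2 to 94.7, exact binomial) lay above 25 UMIs, the 90th percentile of WT, as did 12.9% of cells labelled SC35-KO and 8.16% of WT cells. For the 11 degradation genes the medians were 6, 5 and 4 UMIs per cell, and the distributions overlapped widely.

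**Figure D2:**
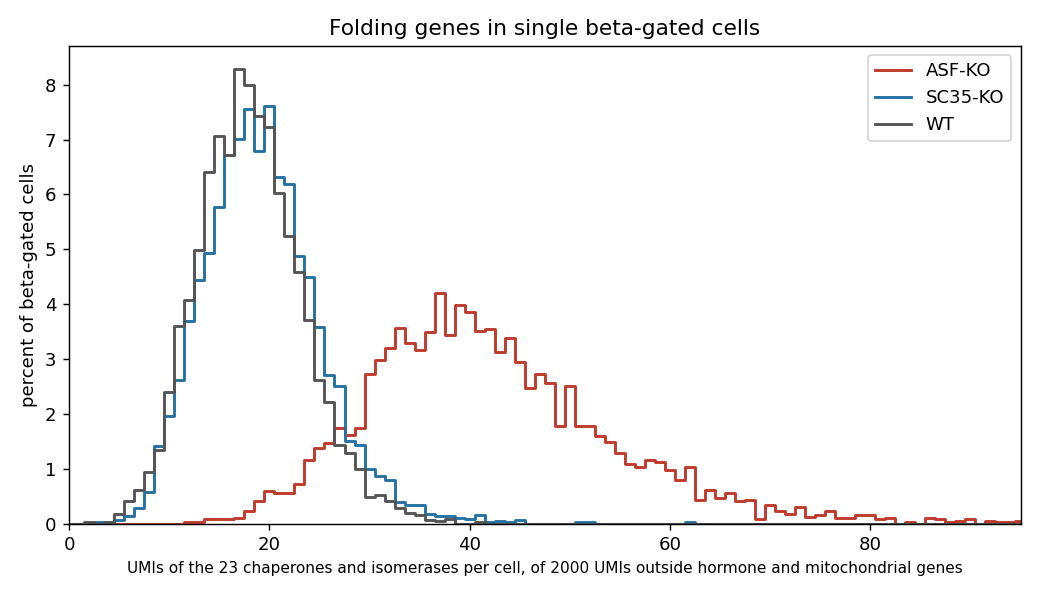
Percent of beta-gated cells (vertical axis) by the number of UMIs of the 23 chaperones and isomerases among 2000 UMIs outside hormone and mitochondrial genes (horizontal axis), with 1 line per library. The ASF-KO line has its median at 40 and its 10th percentile at 28, right of the 90th percentile of WT at 25, while the SC35-KO and WT lines overlap with medians of 19 and 18.

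The share of beta-gated cells with a UMI had the same order for the genes of largest ratio. Sdf2l1 was seen in 2463 of 3897 thinned cells labelled ASF-KO, 1303 of 5002 labelled SC35-KO and 647 of 4619 of WT, and without thinning in 93.7%, 51.0% and 45.9% of cells. For Fkbp11 the thinned shares were 56.9%, 23.3% and 11.1%, and for Derl3 8.34%, 3.60% and 1.52%. Hspa5, already in most cells, was in 99.4% under ASF-KO, 81.3% under SC35-KO and 88.9% in WT. Endothelial-gated cells, which make no insulin, served as a measure of free RNA, with medians of 3389, 2488 and 2962 UMIs. There, thinned to 1000 such UMIs (408, 361 and 644 cells), Fkbp11 was seen in 0.735%, 1.66% and 0.932% of cells and Sdf2l1 in 2.70%, 2.22% and 1.55%. These shares rest on few positive cells and on a smaller number of UMIs than the 2000 of beta-gated cells. They also do not tell free RNA from transcripts of the endothelial cells themselves.

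Among kept beta-gated cells the difference stood at each depth and insulin share examined. In the shallow barcodes that the cell filter removed it was much smaller, as given further below. Levels here are UMIs of the 23 chaperones and isomerases, scaled to a total of 1000000 UMIs outside hormone and mitochondrial genes (non-hormone CPM). Among beta-gated cells with 10000 to 20000 UMIs they summed to 19083 under ASF-KO (635 cells), 9513 under SC35-KO (2444) and 9092 in WT (1238). Among cells with 20000 to 40000 UMIs they summed to 21208, 9831 and 9136. With insulin at 45 to 60% of UMIs the sums were 19289, 9431 and 9140, and above 60% they were 21941, 9848 and 9016. Within the library labelled ASF-KO the sum was lowest in cells with 30 to 45% insulin (17610, 116 cells), and in WT the lowest and highest of these insulin ranges were 9016 and 9140. It also varied with the mitochondrial share under ASF-KO, without a single direction, at 22600 below 2.5% mitochondrial UMIs, 17658 at 5 to 10% (241 cells) and 21672 at 10 to 20% (14 cells), against 9095, 9152 and 8218 in WT (6 cells in the last range). In every one of these ranges the ASF-KO sum was above the WT sum.

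Several other transcripts also differed between the libraries in beta-gated cells. The 9 acinar markers, mostly digestive enzymes, summed to 284 CPM under ASF-KO, 46.8 under SC35-KO and 422 in WT, and without the cells richest in them the count of higher members under ASF-KO was again 24. Alpha markers summed to 2018, 2014 and 2013 CPM. The metallothioneins Mt1 and Mt2 stood at 179, 2119 and 7181 CPM, and 7 immediate-early and heat shock genes that respond to dissociation at 942, 463 and 845 CPM. The part of metallothionein and stress levels in the folding genes' difference was not tested.

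In alpha-, delta-, gamma- and endothelial-gated cells labelled ASF-KO the list as a whole lay near the median gene, with medians of 0.04, -0.01, 0.09 and 0.09 on the log2 scale. For the chaperones and isomerases alone the medians were 0.14, 0.09, 0.21 and 0.18. Hyou1 and Sdf2l1 were higher by 1.5 times in alpha-, gamma- and endothelial-gated cells, and Pdia3 in alpha- and endothelial-gated cells. Glucagon-rich alpha cells (1442 under ASF-KO and 1299 in WT) had 3 members higher by 1.5 times and 1 lower among 35 measured, where 3.77% of all genes were higher and 6.02% lower (8.25% and 3.58% when totals left out hormone and mitochondrial genes). These were Sdf2l1 at 51.1 CPM under ASF-KO and 27.6 in WT (1.79, 1.58 to 2.04), Hyou1 at 111 and 63.9 (1.68), Pdia3 at 590.3 and 368 (1.55), and on the low side Herpud1 at 126 and 192 (0.636). Fkbp11, the gene with the highest ratio in beta-gated cells, stood at 33.8 CPM in alpha-gated cells labelled ASF-KO and 33.5 in WT. Somatostatin-rich delta cells (610 and 674) had none higher and only Derl1 lower, at 32.1 and 52.5 CPM (0.606), where 4.92% and 7.04% of genes were higher and lower (9.23% and 4.37% on those totals). Gamma cells, rich in pancreatic polypeptide (101 and 227), had 3 higher and 3 lower, with 9.68% and 12.2% of genes. The median gene stood at 1.38 of WT there. In plain CPM 17 of 35 members were higher and 0 lower, where 39.4% of all genes were higher and 3.65% lower, and the members' median of 1.47 was close to that of all genes. When totals left out hormone and mitochondrial genes, 11 were higher and 0 lower, among 24.3% and 6.01% of genes. In them Hyou1 stood at 86.5 CPM under ASF-KO and 27.6 in WT (2.27, 1.73 to 2.99), and Herpud1 at 98.3 and 129 (0.552). Endothelial-gated cells (415 and 649) had 3 higher and 2 lower, with 8.71% and 11.7% of genes (6 and 0 members and 13.4% and 8.52% of genes on those totals), and Hyou1 again led at 48.2 and 20.5 CPM (2.28, 1.54 to 3.40). The calls for Sdf2l1 and Ern1 in endothelial cells and Derl2 in gamma cells rested on fewer than 40 UMIs in a library and had intervals reaching to or close to 1.

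**Figure D3:**
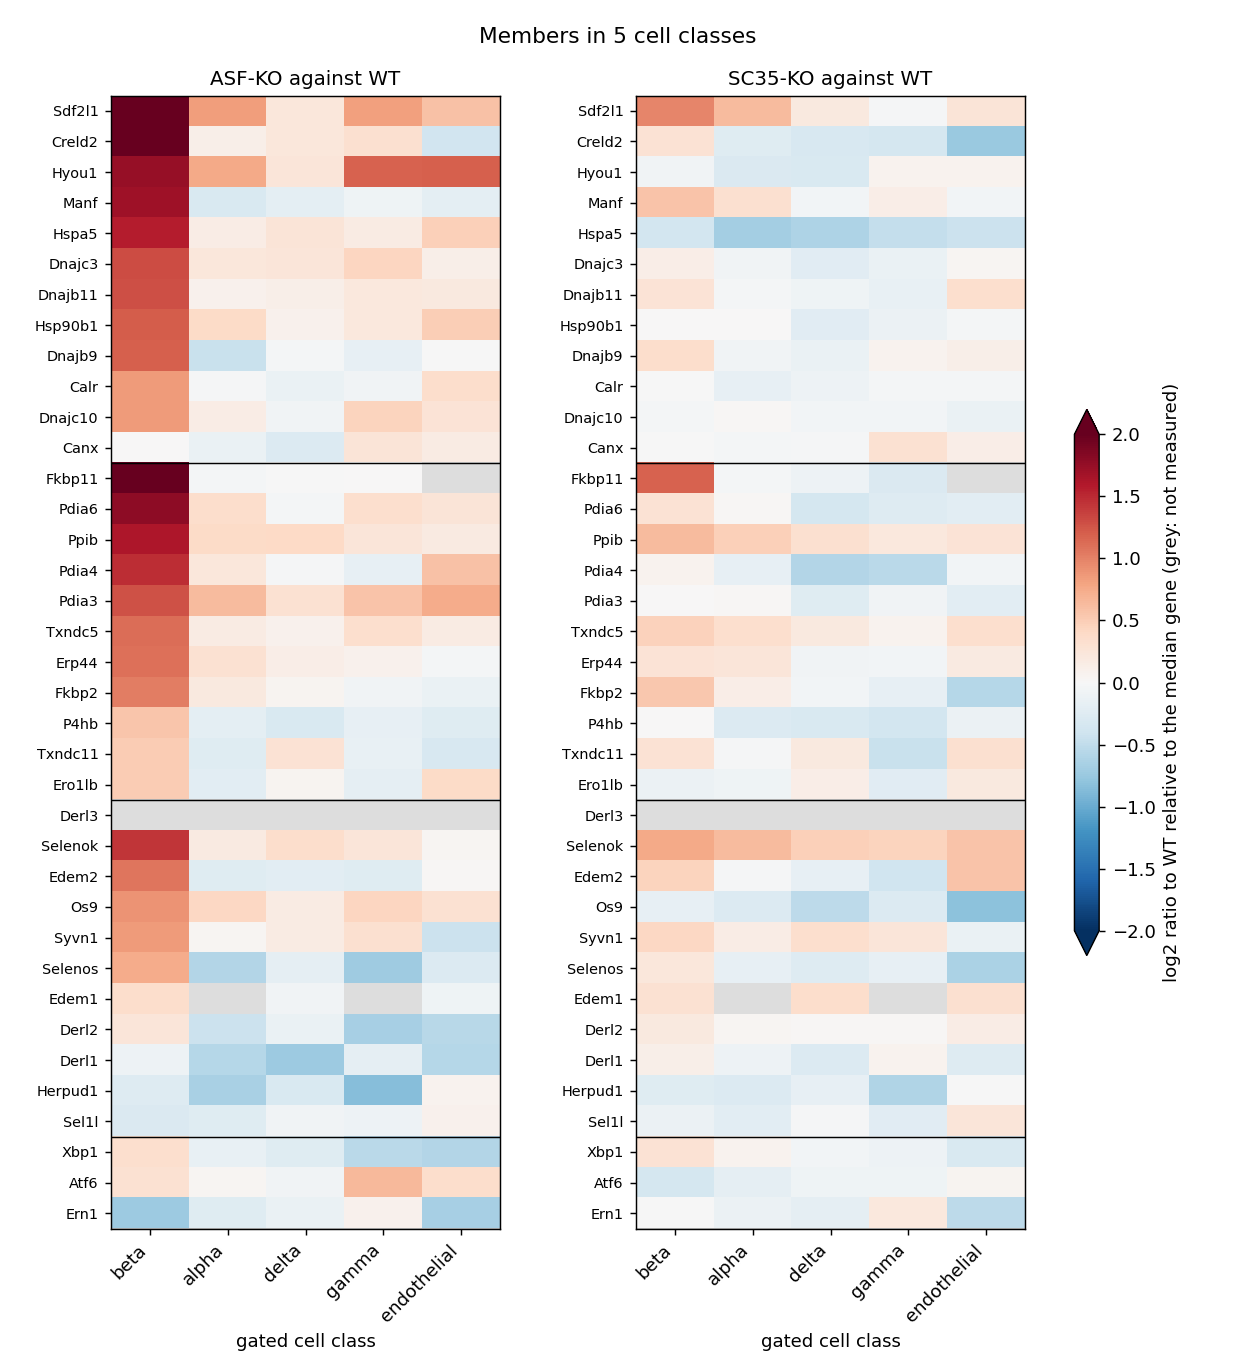
Ratio of each member to WT relative to the median gene, on the log2 scale, in 5 gated cell classes (columns) for ASF-KO (left) and SC35-KO (right), with members grouped by role and grey where a gene was not measured. Under ASF-KO the beta column is red for nearly all chaperones and isomerases, up to 2.97 for Fkbp11 on this scale, while the other columns are mostly pale.

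Of the 34 members measured in all 5 classes, 29 had their highest ratio under ASF-KO in beta-gated cells, all but Canx, Herpud1, Sel1l, Ern1 and Atf6, where 32.9% of the 4726 genes measured there did so. Under SC35-KO 22 of 34 did, and 24.2% of genes. Since these ratios are set against a median gene for each class, they depend on the scaling. In plain CPM the numbers were 18 members and 2.84% of genes under ASF-KO, and 6 members and 0.868% under SC35-KO. Members above the median gene in all 5 classes under ASF-KO were 11, among them Hspa5, Hsp90b1, Sdf2l1, Hyou1, Pdia3 and Selenok, where 17.4% of genes were so. Derl1 was the 1 member below it in all 5, as were 18% of genes.

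Under the label SC35-KO between 0 and 2 members were higher in each of the other classes, and Hspa5 was lower in alpha- and delta-gated cells. Alpha-gated cells had 2 higher, Sdf2l1 and Selenok, both at 1.55, and 1 lower, Hspa5 at 451 CPM under SC35-KO and 820 in WT (0.627, 0.610 to 0.645), where 2.27% of genes were higher and 2.38% lower (0.666% and 6.41% in plain CPM). Delta-gated cells had only Hspa5 lower, at 487 and 739 CPM (0.653), with 2.89% and 3.47% of genes (5.16% and 2.22% when totals left out hormone and mitochondrial genes). Gamma-gated cells had only Herpud1 lower (0.660), with 5.86% and 7.64% of genes (1 member higher and 0 lower, with 13.5% and 3.65%, on those totals). Endothelial-gated cells had Os9 (0.569), Creld2 (0.598) and Selenos (0.648) lower, with 7.83% and 10.3% of genes (2 members higher and 2 lower, with 11.4% and 7.33%, on those totals). The interval of Creld2, from 19 UMIs under SC35-KO, reached past 1 (0.337 to 1.02). Of the 34 members measured in all 5 classes, 4 lay above the median gene in each of them under SC35-KO and 4 below, smaller shares than the 18.6% and 18.2% of all genes that did so.

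Insulin, as a measure of beta cell RNA found in other cells, differed between the libraries. Insulin in alpha-gated cells was 4.03% of its beta level under ASF-KO, 3.49% under SC35-KO and 2.74% in WT, and in endothelial-gated cells 8.68%, 7.54% and 4.61%. If every member were carried over in the same proportion, carry-over would make up a median of 5.21% of the members' alpha level under ASF-KO, 2.96% under SC35-KO and 2.12% in WT. For Sdf2l1 under ASF-KO it would be 13.7% of the alpha level and 65.5% of the endothelial level, and for Hyou1 6.24% and 31.0%. For Fkbp11 in endothelial-gated cells labelled ASF-KO it would be 161.5% of the observed level (7.47 CPM), more than was found. That level rests on few UMIs, and the counting error of this comparison was not computed. Whether equal proportions held was not tested for any member, and the figures for Sdf2l1 and Hyou1 rest on that assumption. The part of carry-over in the ratios of these classes was not tested.

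The 23 chaperones and isomerases together had 21145 non-hormone CPM in beta-gated cells labelled ASF-KO, 9693 in those labelled SC35-KO and 9111 in WT. In alpha-gated cells the sums were 7697, 5736 and 6195, in delta-gated cells 8530.0, 6814 and 7400.4, in gamma-gated cells 10116, 7617 and 7392, and in endothelial-gated cells 4102, 3223 and 3092. In each of these classes the sum was highest under ASF-KO. The sum is weighted to abundant genes such as Hspa5 and Hsp90b1. For the 11 degradation genes the beta sums were 3191, 2430 and 2112, and the alpha sums 1136, 1210 and 1167.

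**Figure D4:**
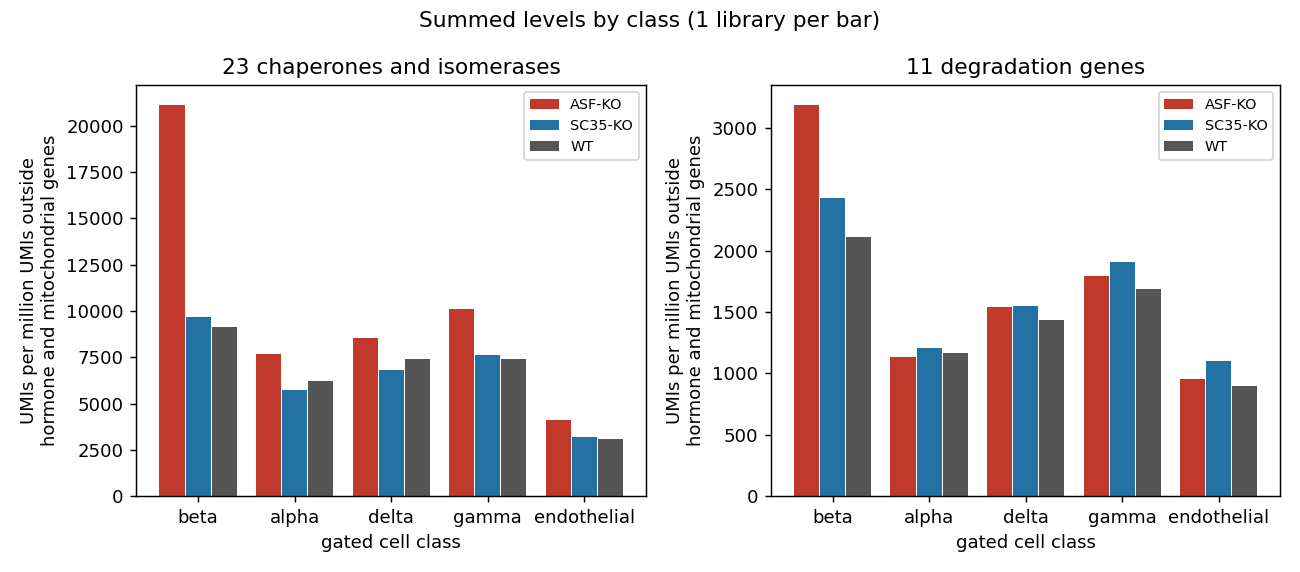
Summed UMIs of the 23 chaperones and isomerases (left) and the 11 degradation genes (right) in non-hormone CPM, by gated class, with 1 bar per library. The tallest folding bar is that of beta-gated cells labelled ASF-KO at 21145, against 9693 under SC35-KO and 9111 in WT, while alpha bars lie between 5736 and 7697.

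In WT, beta-gated cells held the highest level of 20 of the 37 members among 7 classes, in non-hormone CPM, and gamma-gated cells that of 10. The share of all genes that were highest in each class was not computed. The counts of this ranking therefore do not set the list apart from other genes. Ero1lb had the widest margin to the next class, at 1234 non-hormone CPM in beta-gated cells and 111 in alpha-gated cells, an 11.1-fold difference (10.45 to 11.8). Sel1l (255 in beta-gated and 93.03 in mesenchymal cells, 2.74-fold) and Atf6 (120 in beta-gated and 63.6 in delta-gated cells, 1.88-fold) also stood apart from the next class. Hspa5 did not separate beta- from gamma-gated cells, at 1234 and 1177 with a ratio of 1.05 (0.998 to 1.101), nor P4hb, at 547 and 516. Fkbp11 was highest in gamma-gated cells of WT, at 175, against 80.5 in delta-, 60.9 in beta- and 46.5 in alpha-gated cells. Ppib was highest in mesenchymal cells, at 459, with 116 in beta-gated cells. Among cells labelled ASF-KO beta-gated cells were highest for 35 of the 37, the exceptions being Ppib and Ern1, and among those labelled SC35-KO for 26. Members higher in beta- than in alpha-gated cells numbered 37 under ASF-KO, 36 under SC35-KO and 35 in WT, again with no share of all genes computed.

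Other genes of the same pathways, outside the 37, gave smaller differences in beta-gated cells. The 37 and these further lists were chosen with earlier results of these data known, so this contrast is not independent of that choice. Of 38 other ER folding genes 29 were measured, and 7 were higher by 1.5 times and none lower under ASF-KO, with a median of 0.388 on the log2 scale, where 8.51% of all measured genes were higher and 7.9% lower. The 3 highest were Kdelr2, a receptor that returns ER proteins from the Golgi, at 2.07, Hspa13 at 1.95 and Dnajc25 at 1.86, and the 3 lowest Fkbp9 at 0.791, Txndc12 at 0.822 and Tmx3 at 0.836. Sdf2, the paralogue of Sdf2l1, stood at 32.7 CPM under ASF-KO, 35.3 under SC35-KO and 29.9 in WT, with 1.45 and 1.58. Under SC35-KO, where 3.43% of all genes were higher and 2.43% lower, 4 of the 29 were higher, Kdelr2 at 1.81, Prdx4 at 1.65, Sdf2 at 1.58 and Rcn2 at 1.54, and the lowest were Uggt1 at 0.795, Mesd at 0.850 and Fkbp9 at 0.875. Of 23 other degradation genes 21 were measured, with 4 higher under ASF-KO, the ligase Rnf5 at 2.22, the lectin Erlec1 at 1.86, Edem3 at 1.81 and Ubxn4 at 1.63, and 1 under SC35-KO, Rnf5 at 1.70, a count near the share of all genes. The lowest under ASF-KO were Aup1 at 0.672, Yod1 at 0.763 and Erlin2 at 0.826, and under SC35-KO Vcp at 0.800, Ubxn4 at 0.890 and Ube2g2 at 0.911. After Rnf5 the highest under SC35-KO were Yod1 at 1.23 and Erlec1 at 1.18.

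Genes of the Perk and Atf4 arm and other stress regulators did not share 1 direction. Of 19 listed 16 were measured, 3 higher and 6 lower by 1.5 times under ASF-KO, where 8.51% of all genes were higher and 7.9% lower. The higher ones were Bhlha15, a transcription factor of secretory cells, at 17.3 CPM under ASF-KO and 9.14 in WT (2.498), Ppp1r15a (Gadd34), which restores translation, at 2.33, and Eif2ak3, which encodes Perk, at 1.96. The lower ones were Atf5 at 59.3 CPM under ASF-KO and 189 in WT (0.414), Nupr1 at 131 and 389.9 (0.445), Chac1 (0.489), Asns (0.568), Sesn2 (0.594) and Ddit3, which encodes Chop, at 42.1 and 89.3 (0.623). Atf4 itself had 120.8 and 132 CPM (1.21). Under SC35-KO, with 3.43% of all genes higher and 2.43% lower, 1 of the 16 was higher, Nupr1 at 582 CPM against 389.9 in WT (1.99), and 1 lower, Chac1 (0.563), with Eif2ak3 (1.44) and Bhlha15 (1.34) next on the high side and Ddit3 (0.738) and Mbtps1 (0.887) on the low side, counts near the shares of all genes. Hspa5 and Ddit3, both raised by ER stress in many cells, thus lay on opposite sides of WT in beta-gated cells labelled ASF-KO, and both were below it in those labelled SC35-KO, at 0.772 and 0.738.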

How the data were processed

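Single islet cells of 3 libraries, labelled ASF-KO, SC35-KO and WT, were profiled with a droplet kit. The deposited files hold raw UMI counts per gene and barcode, whole numbers with no normalization, per the values and file headers. Cell Ranger 5.0.0, STAR, Seurat and mm10 are named in the submitters' processing notes without their roles. Counting error covers only the spread of molecules, or of cells for shares of cells. Depth (148320213, 150116204 and 154099078 UMIs) therefore makes intervals narrow without bearing on the spread between mice.

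Cells with at least 1000 UMIs, 500 genes and at most 20% mitochondrial UMIs were assigned to classes by the percent of UMIs in marker genes: 30 for Ins1 and Ins2, 7.5 for Gcg or Sst, 20 for Ppy, and 0.5 for 8 endothelial genes. Cells with another islet hormone above its bar or in several gates were left out, and Scrublet (scanpy 1.11.5) marked 4.31%, 7.58% and 3.13% of cells, removed only as an alternative. UMIs were summed per class and library and scaled to a total of 1000000 (CPM). Sums carry exact Poisson intervals, ratios exact conditional binomial intervals and shares exact (Clopper-Pearson) intervals. Ratios were divided by that of the median gene over genes with a mean of at least 10 CPM and 20 UMIs over the 3 libraries, and called at 1.5-fold, with no test because each group has 1 library. The ratios and intervals were tested on simulated counts. Ddit3 has a pair of gene IDs, and the one with UMIs was used. Every member at least 1.5 times above or below the median gene in beta-gated cells was to be given with values, others by range and count, and of each further list the 3 largest ratios each way. The members, lists and gates were chosen with earlier results of these data known. Promoters came from RefSeq (GRCm38.p6) and gene positions from the GENCODE vM21 annotation of the same assembly (mm10). Computation used scipy 1.17.1 and pandas 2.3.3 under python 3.11.15, with matplotlib 3.10.9 for plots. The 14 alternatives concerned scaling, cell filter, gates, doublets, minimum level, weight and depth of cells, exocrine transcripts and the fold.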

Additional observations from a re-analysis of the deposited data

Results flagged for a closer look

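Selenos had opposite calls in 2 classes of the library labelled ASF-KO. It stood at 1.67 relative to the median gene in beta-gated cells (162 CPM under ASF-KO and 128 in WT) and at 0.614 (0.522 to 0.720) in gamma-gated cells (144 and 170.1 CPM, from 208 and 597 UMIs). The difference between the classes was not tested, and in plain CPM the gamma ratio was nearer to 1, since the median gene there stood at 1.38 of WT.

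Barcodes that the cell filter removed, and that passed the insulin threshold, also held folding transcripts, above the WT level in both KO-labelled libraries. They numbered 3287 under ASF-KO, 436 under SC35-KO and 138 in WT, with medians of 741, 594 and 781 UMIs. The 23 chaperones and isomerases had 9680.5 UMIs per 1000000 outside hormone and mitochondrial genes under ASF-KO, 9230.8 under SC35-KO and 8173.9 in WT. The kept beta-gated cells labelled ASF-KO stood at 21145 on that scale, so the removed barcodes of that library were closer to WT than its kept cells were. Sdf2l1 in removed barcodes was at 167 on that scale under ASF-KO (205 UMIs), 69.9 under SC35-KO (10 UMIs) and 16.7 in WT (1 UMI).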

How the results depend on the processing

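The count of members higher under ASF-KO in beta-gated cells ran from 17 to 26 over the 14 alternatives, and was 24 in 10 of them. Of 168 counts 136 kept within 1.5 times of their value and 32 moved. Of 700 ratios of single members in beta-gated cells 592 stayed within their counting interval and 108 moved out of it. None of the 350 values of the 25 called members under ASF-KO, or of the 56 of the 4 called under SC35-KO, crossed the median gene, but 12 of 21 uncalled members under SC35-KO crossed it in some setting, 9 of them in plain CPM alone (Creld2 ran from 0.911 to 1.23). In plain CPM, 3 members were lower under ASF-KO in beta-gated cells, and under SC35-KO 1 was higher and 3 lower, with 0 higher in alpha-gated cells. With the total taken without hormone and mitochondrial genes, 0 were lower in alpha under ASF-KO and 0 in delta under SC35-KO. Median-of-ratios factors, Scrublet removal, a minimum of 1 CPM, a minimum of 50 CPM, equal weight per cell and removal of exocrine-rich cells each gave 2 lower in delta under SC35-KO. The stricter cell filter, the looser gate, the stricter gate, equal weight and removal of exocrine-rich cells gave 2 lower in alpha under ASF-KO, and the looser gate 1 higher in alpha under SC35-KO. At a minimum of 50 CPM, 0 were lower in beta and 0 in delta under ASF-KO, and 1 was higher in alpha under SC35-KO. In cells of 10000 to 40000 UMIs, delta had 1 higher and 2 lower under ASF-KO, among 11.4% and 13.0% of all genes, and 4 lower under SC35-KO, among 13.7%. At 2-fold, 19 members were higher in beta under ASF-KO and 1 under SC35-KO, and 0 were lower in beta, higher or lower in alpha, or lower in delta in either library. The cause of these moves was not tested, except that a higher fold or minimum leaves fewer members to call. No paired analysis was possible because each group has 1 library. The difference between mice cannot be estimated here, and low counts limit gamma and endothelial values.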

Other observations

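Macrophage- and mesenchymal-gated cells were too few for ratios, with 28 and 47 cells labelled ASF-KO, 82 and 74 labelled SC35-KO and 132 and 127 of WT, and are given as levels. Ppib had 369.5 CPM in macrophages labelled ASF-KO, 428 under SC35-KO and 305 in WT, and 394, 433 and 430.2 CPM in mesenchymal cells. Hspa5 in macrophages stood at 1069.6 CPM (879 to 1289) under ASF-KO, 451 (374 to 540) under SC35-KO and 600.1 (540 to 665) in WT, from 110, 119 and 368 UMIs. Sdf2l1 in mesenchymal cells had 5, 1 and 1 UMIs, too few to compare. Fkbp11 had 0 UMIs in macrophages of both KO-labelled libraries and 2 in WT.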
